A study of Homo sapiens with 12 samples.

Results

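The genes described here encode histone deacetylases (HDACs), the corepressor scaffolds that carry them, and the Polycomb complexes. They number 34 and were taken as a fixed list of names. They are HDAC1 to HDAC11, NCOR1 and SIN3A, the NuRD subunits MTA1, MTA2, MTA3, CHD4, RBBP4, RBBP7 and MBD3, the PRC2 subunits EZH1, EZH2, EED, SUZ12 and JARID2, and the PRC1 subunits CBX2, CBX6, CBX7, CBX8, PHC1, PHC2, BMI1, RING1 and RNF2. Of these, 30 had a probe set assigned to them alone and are among the 19775 genes tested. NCOR1, CBX8, BMI1 and RNF2 had none and are given no values. The single probe set of highest mean represented each gene, and of the 30 genes 26 lay at or above the median gene in mean signal.

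HDACs remove acetyl groups from histones. The class I enzymes HDAC1 and HDAC2 sit in the SIN3, NuRD and CoREST complexes, and HDAC3 in the NCoR/SMRT complex, which nuclear receptors recruit to the genes they repress. PRC2 methylates histone H3 through its catalytic subunit EZH2 or EZH1. PRC1 carries chromobox proteins (CBX) that read that mark, polyhomeotic proteins (PHC) that self-associate, and a RING pair that ubiquitinates histone H2A. In pluripotent cells both complexes occupy developmental genes that are kept silent.

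RNA was measured on 12 oligonucleotide arrays, 3 in each of 4 groups of the H9 line, a pluripotent stem cell line of embryo origin in wide use. Every group, the untreated one included, carried a Tet-on construct that expresses GCNF, a nuclear receptor encoded by NR6A1, when doxycycline (Dox) is given. Passages were 28 to 35. The day 6 groups were grown for 6 days in DMEM/F12 with 15% serum, the Dox-labelled day 6 arrays with 1 µg/ml Dox and the RA-labelled day 6 arrays with 1 µM retinoic acid (RA). The others stayed undifferentiated in mTeSR medium, either given 1 µg/ml Dox over 4 days, called d0 with Dox, or left untreated, called d0. The promoter of the construct and whether the line was 1 clone are not given in the sources used here. There was no day 6 group without RA or Dox among the samples analysed here, so medium, time and agent cannot be told apart in a change from d0 to day 6.

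Signals are the deposited linear intensities, whose trimmed mean was 500 on every array, so a gene is read relative to the other genes on its array. Fold changes are differences of group means of log2(signal + 16), given ± SE with n = 3 arrays a group. "Rose", "fell", "higher" and "lower" with a test refer to an adjusted p under 0.05 in limma. Replicates are labelled biological, but whether they came from separate cultures is not said, and the p-values cover the spread among the arrays at hand.

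The labels were checked on NR6A1, which was read by 7 probe sets. All 7 were higher in d0 with Dox than in d0, and the most induced stood at 615 ± 40.8 in d0 with Dox and 26.8 ± 17.6 in d0 (SD, n = 3 each). At day 6 that probe set stood at 29.2 ± 13.7 in Dox-labelled and 336 ± 70.9 in RA-labelled arrays, and 4 of the 7 were lower and 3 higher in the Dox-labelled group. CYP26A1, a retinoic acid-degrading enzyme that retinoic acid induces, averaged 29590 ± 1010 in Dox-labelled and 271 ± 37 in RA-labelled arrays. CYP26A1 and the most induced NR6A1 probe set go against the day 6 labels. Every direction below that involves a day 6 group therefore rests on those labels.

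The cell state also differed with the groups. The summed signal of 9 of 10 pluripotency markers was 19330 to 20286 in Dox-labelled day 6, 20104 to 22171 in RA-labelled day 6, 102162 to 106953 in d0 with Dox and 113924 to 123770 in d0. Trophoblast and amnion markers (7 of 8) summed to 38442 to 39980 in Dox-labelled against 6619 to 7971 in RA-labelled day 6 arrays, and endoderm markers (6 of 7) to 8927 to 10495 in Dox-labelled against 2440 to 4154 in RA-labelled arrays. Mesoderm markers (7 of 7) summed to 4100 to 4816 in Dox-labelled against 1214 to 1957 in RA-labelled arrays, mesenchyme markers (7 of 7) to 86472 to 91168 in Dox-labelled against 78224 to 90303 in RA-labelled arrays, and neural markers (8 of 8) to 15955 to 16250 in Dox-labelled against 15678 to 16537 in RA-labelled arrays. Single genes carried some of these sums. IGFBP3 averaged 26620 in Dox-labelled and 2448 in RA-labelled arrays, with GATA3 (5428 and 2682), KRT7 (5024 and 1831) and TFAP2A (1900 and 409) also higher, while the trophoblast genes CDX2 (6.188 and 20.64) and CGA (4.464 and 7.561) were near the floor and did not pass. GATA6 averaged 8032 in Dox-labelled and 1580 in RA-labelled arrays, whereas the endoderm genes AFP, SOX17 and FOXA2 did not pass and CXCR4 was lower (98.39 and 168.5). The mesoderm sum held mostly PDGFRA, at 3604 in Dox-labelled and 986.3 in RA-labelled arrays. NES (7291 and 7690) and TUBB3 (7908 and 7988) made up most of the neural sum and, with DCX, averaged slightly less in Dox-labelled arrays. The other neural markers averaged more there, MAP2 (511.4 and 277.4) and PAX6 (93.54 and 27.61) among them. COL1A1 and COL1A2 made up most of the mesenchyme sum. All mesenchyme markers but COL1A2 averaged more in Dox-labelled arrays, TWIST1 (1674 and 602.5) and DCN (226.2 and 74.42) among them. The pluripotency sums of the day 6 groups were close, but single markers were not. LIN28A (9447 and 7091), L1TD1 (1277 and 905.6) and SALL4 (1332 and 1143) averaged more in Dox-labelled than in RA-labelled arrays. The other measured pluripotency markers averaged less, NANOG (36.71 and 639.8), PRDM14 (14.13 and 265.7) and ZFP42 (756.3 and 1904) among them. Of the pluripotency markers PRDM14 had a mean under 16 in Dox-labelled arrays. The 3′ to 5′ ratio of ACTB, a measure of RNA quality, averaged 2.33, 2.59, 3.86 and 3.24 in Dox-labelled day 6, RA-labelled day 6, d0 with Dox and d0. The part of cell composition or RNA quality in the results below was not tested, and in bulk RNA fewer cells of a type and less RNA per cell cannot be told apart.

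In undifferentiated cells, d0 with Dox was set against d0. No Dox-treated group lacked the construct, so GCNF induction and Dox itself cannot be told apart in this comparison. PHC1, a polyhomeotic subunit of canonical PRC1, fell, while the deacetylase genes HDAC1, HDAC6 and HDAC9 and the NuRD gene MTA3 rose. The other 25 genes did not pass the test, all 5 PRC2 subunits among them. The 5 calls are 16.7% of the 30 genes, against 12.9% of all genes, and the 4 rises and 1 fall stand beside 7.75% and 5.16% of all genes. No gene of the 30 changed by 2-fold or more and passed, against 1.85% of all genes.

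PHC1 stood at 4342, 4677 and 4623 in d0 with Dox, against 7411, 7492 and 6970 in d0. The groups did not overlap, every Dox array lying well below every untreated one. The log2 fold change was -0.68 ± 0.06 (1.60-fold lower, adjusted p = 0.000113). A second probe set of PHC1 also fell, by 0.57 on the log2 scale. PHC2, its paralog, read 812.9, 492.5 and 787.9 in d0 with Dox, against 341.0, 250.1 and 608.0 in d0. These overlapped, since the highest d0 array exceeded the lowest Dox array, and the difference did not pass (log2 0.84 ± 0.28, adjusted p = 0.0829).

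HDAC6, a cytoplasmic class II enzyme that deacetylates tubulin, read 1197, 1035 and 1212 in d0 with Dox, against 674.7, 633.8 and 560.2 in d0. All Dox arrays were above all untreated arrays (log2 fold change 0.87 ± 0.12, 1.82-fold, adjusted p = 0.00132). Its other 2 probe sets were dim, with means under 50, and neither passed. HDAC9, a class II enzyme known from muscle, read 288.5, 316.3 and 300.3 in d0 with Dox, against 207.0, 246.6 and 181.7 in d0 (0.49 ± 0.10, adjusted p = 0.011). Averaging over a gene's probe sets ended the calls of HDAC6, HDAC9 and MTA3.

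HDAC1, the class I catalytic subunit shared by SIN3 and NuRD, read 6354, 6231 and 6178 in d0 with Dox, against 5387, 5234 and 5238 in d0. The Dox arrays were all higher, by a small amount (0.24 ± 0.06, 1.18-fold, adjusted p = 0.024). The call was lost without any 1 of the 6 arrays (adjusted p = 0.0538 to 0.0797) and with median centring (0.0879). MTA3, a NuRD subunit, read 2565, 2711 and 2690 in d0 with Dox, against 1989, 1928 and 2218 in d0 (0.38 ± 0.09, adjusted p = 0.0205). It was lost without d0 replicate 1 or 2 or d0 with Dox replicate 2 or 3 (adjusted p = 0.065 to 0.0689).

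Small differences in 1 direction were common among the genes that did not pass. Of the 30 log2 fold changes 24 were positive, with a median of 0.13, against 0.03 over all genes, and median centring lowered each by 0.07. EZH2, the main PRC2 methyltransferase, read 2386, 2360 and 2502 in d0 with Dox, against 1964, 2039 and 1812 in d0. Its arrays did not overlap, yet it missed the threshold (0.32 ± 0.09, adjusted p = 0.0515). EZH1, its paralog, was similar (0.35 ± 0.11, adjusted p = 0.0637), as was the NuRD remodeller CHD4 (0.29 ± 0.10, adjusted p = 0.086). JARID2, which recruits PRC2 to its targets, read 7016, 7871 and 9329 in d0 with Dox and 8330, 7181 and 9390 in d0, and the groups overlapped (-0.04 ± 0.13). Groups did not overlap for 13 of the 30 genes, against 31.5% of all genes.

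**Figure D1:**
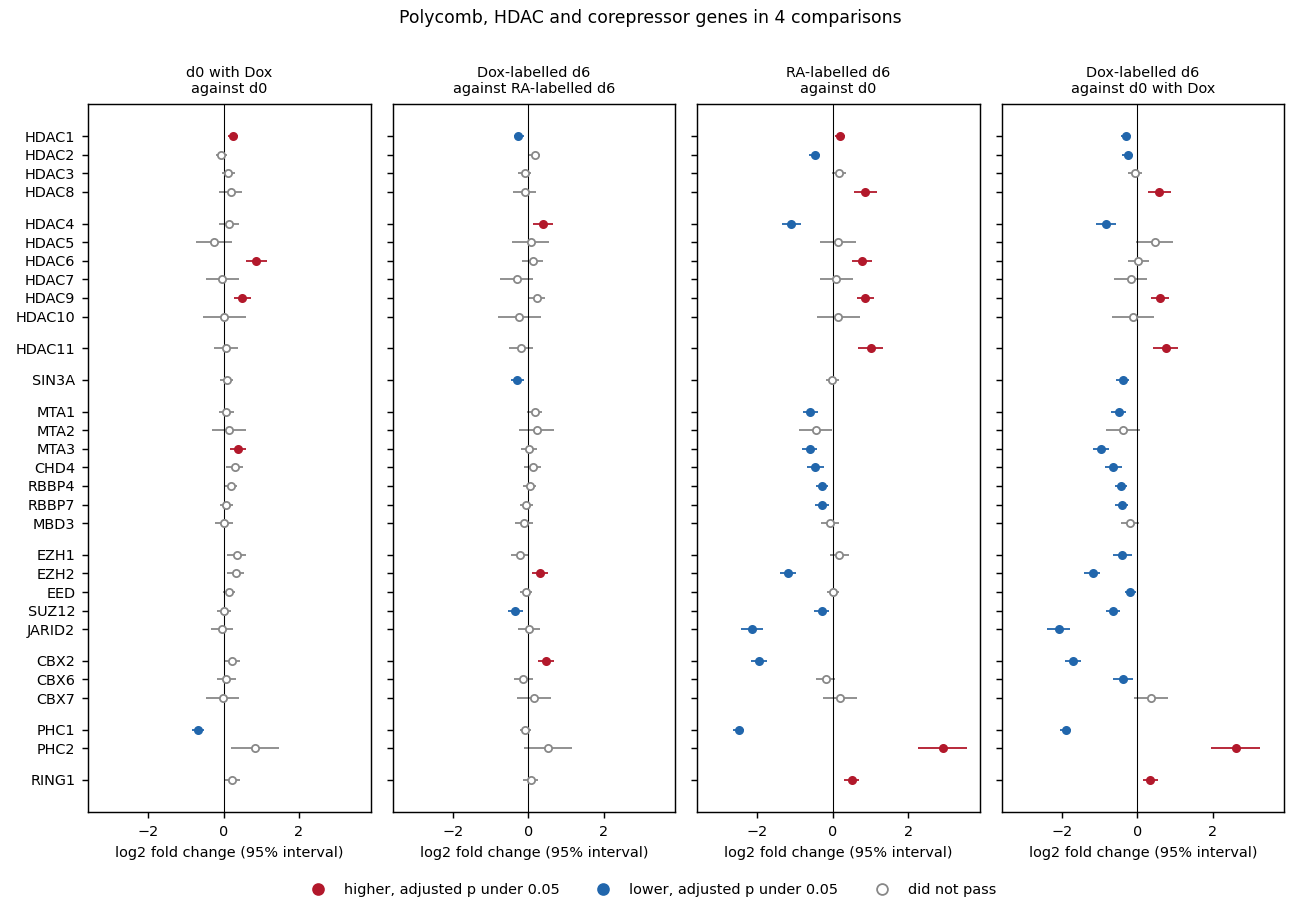
Log2 fold change with its 95% interval for each of the 30 measured genes (rows, by role) in 4 comparisons (panels). Filled points passed an adjusted p of 0.05, red higher and blue lower, and open points did not. The long shifts of JARID2, CBX2, PHC1 and PHC2 lie in the 2 right-hand panels, from undifferentiated to day 6 arrays.

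The study's design names a second contrast, between the day 6 groups. HDAC4, EZH2 and CBX2 were higher and HDAC1, SIN3A and SUZ12 lower in the Dox-labelled arrays. These 6 calls are 20% of the 30 genes, against 25.9% of all genes (13.7% higher and 12.2% lower), and none reached 2-fold, against 5.79% of all genes. Quantile normalization and median centring each gave 1 higher and 3 lower in place of 3 and 3, while 5226 and 5447 of all genes passed, in place of 5120. Groups did not overlap for 13 of the 30 genes, against 41.6% of all genes.

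CBX2, a chromobox subunit of PRC1, read 528.5, 631.0 and 493.0 in Dox-labelled arrays, against 398.2, 396.9 and 381.5 in RA-labelled arrays. The RA-labelled arrays were tightly grouped below all Dox-labelled ones (log2 fold change 0.47 ± 0.09, adjusted p = 0.00395). A dimmer probe set of CBX2 ran the other way, at 20.9 in Dox-labelled and 59.41 in RA-labelled arrays (-1.17, adjusted p in limma over all probe sets = 0.0364). The mean of its probe sets gave -0.04.

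Within PRC2 the 2 called subunits differed in direction, but both calls were lost with the 6 day 6 arrays alone (adjusted p = 0.0609 for SUZ12 and 0.0987 for EZH2). SUZ12, which the complex needs for its stability, read 2475, 2583 and 2720 in Dox-labelled arrays, against 3566, 2934 and 3389 in RA-labelled arrays. The groups did not overlap (-0.34 ± 0.08, adjusted p = 0.0125). Averaging the SUZ12 probe sets ended the call (-0.34, adjusted p = 0.0763). EZH2 read 1161, 973.9 and 1017 in Dox-labelled arrays, against 855.8, 911.2 and 759.9 in RA-labelled arrays (0.31 ± 0.09, adjusted p = 0.0316). EED, the subunit that binds the methyl mark, and JARID2 gave -0.06 ± 0.07 and 0.02 ± 0.13 and did not pass.

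HDAC1 read 4874, 5149 and 5191 in Dox-labelled arrays, against 6316, 5926 and 5941 in RA-labelled arrays (-0.26 ± 0.06, adjusted p = 0.00953). SIN3A, the scaffold that binds HDAC1 and HDAC2, read 687.2, 820.0 and 784.4 in Dox-labelled arrays, against 930.7, 968.6 and 914.4 in RA-labelled arrays (-0.29 ± 0.07, adjusted p = 0.0146). In both genes every Dox-labelled array was below every RA-labelled one. A second SIN3A probe set of similar signal read 715.9 in Dox-labelled and 736.2 in RA-labelled arrays and did not pass (-0.04, adjusted p = 0.816 over all probe sets). Averaging its probe sets ended the call (-0.11, adjusted p = 0.57). HDAC4, a class II enzyme that binds MEF2 factors, read 253.7, 268.6 and 227.9 in Dox-labelled arrays, against 199.9, 192.3 and 165.9 in RA-labelled arrays (0.40 ± 0.11, adjusted p = 0.0278). Leaving out Dox-labelled replicate 1 left 2 of the 6 calls, HDAC1 and CBX2. HDAC4 was also lost without Dox-labelled replicate 2 or RA-labelled replicate 2 or 3 (0.0534 to 0.0985), EZH2 without Dox-labelled replicate 3 or RA-labelled replicate 1 or 3 (0.056 to 0.11), and SIN3A without RA-labelled replicate 2 (0.0516).

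From the undifferentiated state to day 6, more of these genes changed and by more. RA-labelled day 6 arrays were set against d0, and Dox-labelled day 6 arrays against d0 with Dox, and these comparisons share no array. Each shares its groups with the earlier comparisons, so values are given side by side. In RA-labelled day 6 against d0, 7 of the 30 genes rose and 12 fell, which is 63.3%, against 50.5% of all genes. All genes split about evenly, 25.3% higher and 25.2% lower. In Dox-labelled day 6 against d0 with Dox, 5 rose and 17 fell, which is 73.3%, against 46.1% of all genes (22.2% higher and 23.9% lower). Most of the 30 genes were bright, so all 19775 genes are not a background of like signal. With only genes at or above the median signal tested, 19 of 26 passed in RA-labelled arrays, beside 7808 genes of that brighter set. In Dox-labelled arrays 22 of 26 passed, beside 7181. There the share of these genes was below that of the brighter set in RA-labelled arrays and above it in Dox-labelled arrays. The median log2 fold change of the 30 genes was -0.05 in RA-labelled and -0.34 in Dox-labelled arrays, against -0.01 and -0.03 over all genes. Groups did not overlap for 21 and 25 of the 30 genes, against 56.3% and 55.7% of all genes. Changes of at least 2-fold passed for 7 and 5 of the 30 genes, against 21.3% and 17.3% of all genes.

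The same 12 genes fell in both comparisons. They were HDAC2 and HDAC4, the NuRD genes MTA1, MTA3, CHD4, RBBP4 and RBBP7, the PRC2 genes EZH2, SUZ12 and JARID2, and the PRC1 genes CBX2 and PHC1. The 5 that rose in both were HDAC8, HDAC9, HDAC11, PHC2 and RING1. HDAC1 passed in both with opposite signs. Calls of the same direction made up 89.5% of the RA-labelled and 77.3% of the Dox-labelled calls, against 67.6% and 74.1% over all genes.

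The polyhomeotic genes PHC1 and PHC2 moved in opposite directions. PHC1 read 1223, 1157 and 1234 in Dox-labelled day 6, 1318, 1269 and 1251 in RA-labelled day 6, 4342, 4677 and 4623 in d0 with Dox, and 7411, 7492 and 6970 in d0. Both day 6 groups lay far below both undifferentiated groups. The fall was -2.50 ± 0.06 in RA-labelled arrays (5.64-fold lower, adjusted p = 1.24e-09) and -1.90 ± 0.06 in Dox-labelled arrays (3.74-fold lower, adjusted p = 7.72e-09). Its second probe set fell by 2.20 and 1.78 on the log2 scale.

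PHC2 read 4130, 4562 and 4014 in Dox-labelled day 6, 2877, 2983 and 2936 in RA-labelled day 6, 812.9, 492.5 and 787.9 in d0 with Dox, and 341.0, 250.1 and 608.0 in d0. The day 6 groups lay above all undifferentiated arrays. The rise was 2.92 ± 0.28 in RA-labelled arrays (7.56-fold, adjusted p = 8.59e-06) and 2.61 ± 0.28 in Dox-labelled arrays (6.09-fold, adjusted p = 2.66e-05). A second probe set rose too (1.12 and 0.84), whereas another, dim, fell in RA-labelled arrays, with a mean of 15.37 against 50.68 in d0 (-1.17, adjusted p = 0.00609 over all probe sets). Averaging its probe sets gave a rise of 0.96 and 1.27.

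JARID2 read 1870, 1835 and 1897 in Dox-labelled day 6, 2059, 1706 and 1794 in RA-labelled day 6, 7016, 7871 and 9329 in d0 with Dox, and 8330, 7181 and 9390 in d0. The undifferentiated arrays scattered but none came near the day 6 arrays. The log2 fold change was -2.15 ± 0.13 in RA-labelled (4.44-fold lower, adjusted p = 2.41e-07) and -2.09 ± 0.13 in Dox-labelled arrays (4.27-fold lower, adjusted p = 4.51e-07). Its second bright probe set fell by 2.20 and 1.78.

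CBX2 read 1810, 1770 and 1940 in d0 with Dox and 1538, 1518 and 1642 in d0, all above the day 6 values given above. It fell by 1.95 ± 0.09 on the log2 scale in RA-labelled arrays (3.87-fold lower, adjusted p = 4.64e-08) and by 1.72 ± 0.09 in Dox-labelled arrays (3.29-fold lower, adjusted p = 1.69e-07). The mean of its probe sets fell by 0.67 and 0.60. Of the other chromobox genes, CBX6 fell in Dox-labelled arrays (-0.38 ± 0.11, adjusted p = 0.0165) and did not pass in RA-labelled arrays (-0.18 ± 0.11, adjusted p = 0.211). The difference between these 2 changes did not pass (adjusted p = 0.423). The CBX6 call was lost without Dox-labelled replicate 1 or d0 with Dox replicate 1 or 3 (adjusted p = 0.0546 to 0.0662), and another CBX6 probe set ran the other way in RA-labelled arrays (616.9 against 374.3 in d0, 0.74). CBX7 did not pass in any comparison, with signals of 142 to 283.3 over the 12 arrays.

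EZH2 fell in both comparisons, with log2 fold changes of -1.19 ± 0.09 (adjusted p = 1.74e-06) in RA-labelled and -1.19 ± 0.09 (adjusted p = 2.51e-06) in Dox-labelled arrays. All 6 day 6 arrays were below all 6 undifferentiated arrays. SUZ12 stood at 4225, 4059 and 3978 in d0 with Dox and 4231, 3916 and 4039 in d0. It fell by 0.30 ± 0.08 (adjusted p = 0.0106) in RA-labelled and by 0.65 ± 0.08 (adjusted p = 8.63e-05) in Dox-labelled arrays. The probe sets that represent EED and EZH1 changed by less than that of EZH2. EED fell in Dox-labelled arrays by 0.19 ± 0.07 (adjusted p = 0.0428), a call lost without any 1 of the 6 arrays (0.0575 to 0.147). In RA-labelled arrays it did not pass, but its dim other probe set rose (122.2 against 55.3 in d0, 0.99, adjusted p = 0.00641 over all probe sets). Averaging both gave a rise of 0.50 in RA-labelled arrays (adjusted p = 0.00738) and no call in Dox-labelled arrays (-0.02, adjusted p = 0.935). EZH1 fell in Dox-labelled arrays (537.0, 557.1 and 594.4, against 703.1, 738.9 and 803.0 in d0 with Dox, -0.40 ± 0.11, adjusted p = 0.0111) and did not pass in RA-labelled arrays (0.17 ± 0.11). Of its 4 other probe sets, 2 passed in Dox-labelled arrays and fell by more (-0.94 and -1.30). Averaging its probe sets gave a fall of 0.58 in Dox-labelled arrays (adjusted p = 0.00437) and no call in RA-labelled arrays (-0.24, adjusted p = 0.18).

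**Figure D2:**
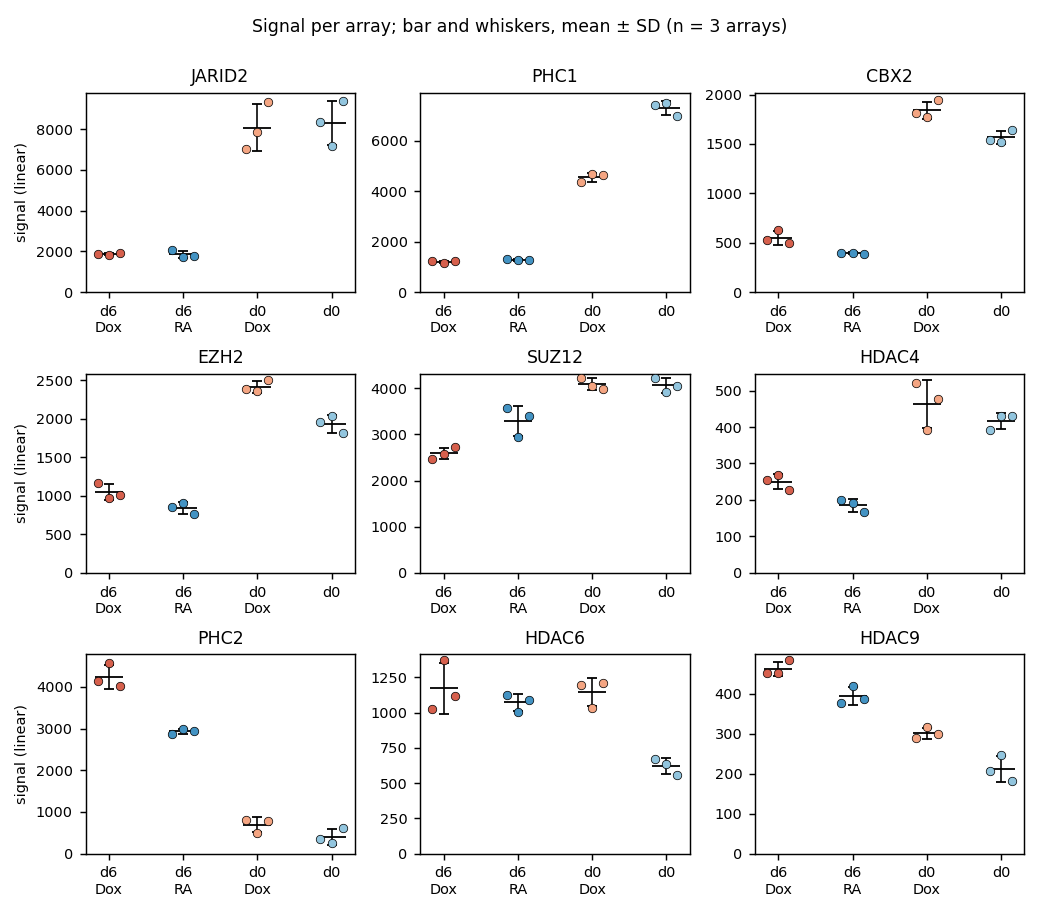
Linear signal on each array (points) with the mean and SD (bar and whiskers, n = 3) for 9 genes in Dox-labelled day 6, RA-labelled day 6, d0 with Dox and d0. JARID2, PHC1, CBX2, EZH2 and HDAC4 are low and PHC2 and HDAC9 high in both day 6 groups. Between d0 with Dox and d0, the arrays of PHC1, HDAC6, HDAC9, EZH2 and CBX2 do not overlap, and PHC1, HDAC6 and HDAC9 passed the test.

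Of the 7 NuRD genes 5 fell in each comparison and none rose, against 25.2% and 23.9% of all genes lower in RA-labelled and Dox-labelled arrays. With each gene's probe sets averaged, 3 of the 7 fell in each comparison and none rose. MTA3 read 1404, 1336 and 1324 in Dox-labelled and 1278, 1225 and 1500 in RA-labelled day 6 arrays, below every undifferentiated array. It fell by 0.61 ± 0.09 in RA-labelled (adjusted p = 0.000182) and by 0.96 ± 0.09 in Dox-labelled arrays (adjusted p = 8.6e-06). Its only other probe set, much dimmer, rose in RA-labelled arrays (225.9 against 106.3 in d0, 1.02, adjusted p = 0.00282 over all probe sets). Averaging both gave 0.20 in place of -0.61 in RA-labelled arrays and -0.20 in place of -0.96 (adjusted p = 0.281) in Dox-labelled arrays, so neither fall passed.

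MTA1, another NuRD subunit, read 2389, 2402 and 2538 in Dox-labelled day 6, 2026, 2112 and 2398 in RA-labelled day 6, 3566, 3338 and 3493 in d0 with Dox, and 3229, 3080 and 3621 in d0. It fell by 0.60 and 0.50 on the log2 scale in RA-labelled and Dox-labelled arrays, and the mean of its probe sets by 1.06 and by 0.41, the second of which did not pass (adjusted p = 0.177). CHD4 fell by 0.47 (adjusted p = 0.0022) and 0.64 (adjusted p = 0.000331). Its dimmer probe set fell too (-0.43 and -0.67), but another bright one did not pass, reading 4001 in RA-labelled against 3433 in d0 (0.22) and 3865 in Dox-labelled against 4534 in d0 with Dox (-0.23). Averaging the CHD4 probe sets ended the RA-labelled call (-0.22, adjusted p = 0.0739) and kept that of the Dox-labelled arrays (-0.51). The histone-binding subunits RBBP4 and RBBP7, which PRC2 and the SIN3 complex also contain, fell by less, RBBP4 by 0.28 and 0.43 and RBBP7 by 0.29 and 0.42. All 5 other probe sets of RBBP4 fell with it in both comparisons, and the mean of all 6 fell by 0.90 and 0.93. The subunits MBD3 and MTA2 did not pass. MTA2 was dim, with signals of 56.75 to 153.5.

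Deacetylase genes did not move as one. Of class I, HDAC2 read 11230, 10720 and 10400 in Dox-labelled day 6, 9455, 9767 and 9597 in RA-labelled day 6, 12320, 13100 and 13360 in d0 with Dox, and 13590, 13230 and 13490 in d0. It was lower in both day 6 groups, by 0.48 ± 0.06 in RA-labelled (adjusted p = 6.53e-05) and by 0.26 ± 0.06 in Dox-labelled arrays (adjusted p = 0.00507). HDAC8, which deacetylates cohesin, rose in both, reading 392.8, 309.1 and 406.7 in Dox-labelled against 209.2, 281.3 and 232.8 in d0 with Dox, and 347.1, 404.1 and 431.8 in RA-labelled against 207.0, 210.0 and 208.4 in d0. Its log2 fold changes were 0.86 ± 0.13 in RA-labelled and 0.58 ± 0.13 in Dox-labelled arrays (adjusted p = 0.000265 and 0.00417), but a dimmer probe set fell in RA-labelled arrays (-0.45, adjusted p = 0.0192 over all probe sets). Averaging its probe sets gave a call in neither comparison (0.16, adjusted p = 0.134, and 0.20, adjusted p = 0.0665). HDAC3, the NCoR enzyme, did not pass in any comparison and read 1228 to 1532 over the 12 arrays.

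Among class II genes, HDAC4 fell and HDAC9 rose. HDAC4 read 521.5, 392.7 and 475.8 in d0 with Dox and 390.5, 429.2 and 429.9 in d0, above all day 6 arrays. Its log2 fold change was -1.10 ± 0.11 in RA-labelled (adjusted p = 1.56e-05) and -0.84 ± 0.11 in Dox-labelled arrays (adjusted p = 0.000143). HDAC9 read 453.3, 451.8 and 483.8 in Dox-labelled and 377.6, 420.7 and 388.3 in RA-labelled day 6 arrays, above all undifferentiated arrays. It rose by 0.86 ± 0.10 (adjusted p = 3.81e-05) in RA-labelled and 0.59 ± 0.10 (adjusted p = 0.000695) in Dox-labelled arrays. The probe sets that represent HDAC5, HDAC7 and HDAC10 did not pass in any comparison. The other HDAC10 probe set, also dim, was lower in Dox-labelled than in RA-labelled arrays (36.77 and 121.9, -1.57, adjusted p = 0.0152 over all probe sets). It also fell in Dox-labelled arrays from 85.47 in d0 with Dox (-1.13, adjusted p = 0.0334 over all probe sets). Averaging both gave no call in these comparisons (-0.90, adjusted p = 0.0523, and -0.62, adjusted p = 0.118).

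HDAC11, the only class IV enzyme, read 204.7, 263.4 and 216.2 in Dox-labelled day 6, 333.7, 235.9 and 227.5 in RA-labelled day 6, 124.2, 136.4 and 125.8 in d0 with Dox, and 125.1, 116.1 and 127.8 in d0. The undifferentiated groups overlapped and lay below all day 6 arrays. The rise was 1.00 ± 0.14 in RA-labelled (adjusted p = 0.000143) and 0.75 ± 0.14 in Dox-labelled arrays (adjusted p = 0.00131). Its direction depended on the probe set, since the only other one fell in RA-labelled arrays (48.65 against 130.4 in d0, -1.31, adjusted p = 0.0156 over all probe sets). RING1, the ubiquitin ligase paralog of RNF2, rose modestly, reading 988.5, 1131 and 1065 in Dox-labelled day 6, 1076, 986.9 and 977.5 in RA-labelled day 6, 824.7, 783.9 and 892.7 in d0 with Dox, and 688.0, 673.9 and 780.2 in d0. Its log2 fold changes were 0.50 ± 0.09 in RA-labelled and 0.34 ± 0.09 in Dox-labelled arrays.

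**Figure D3:**
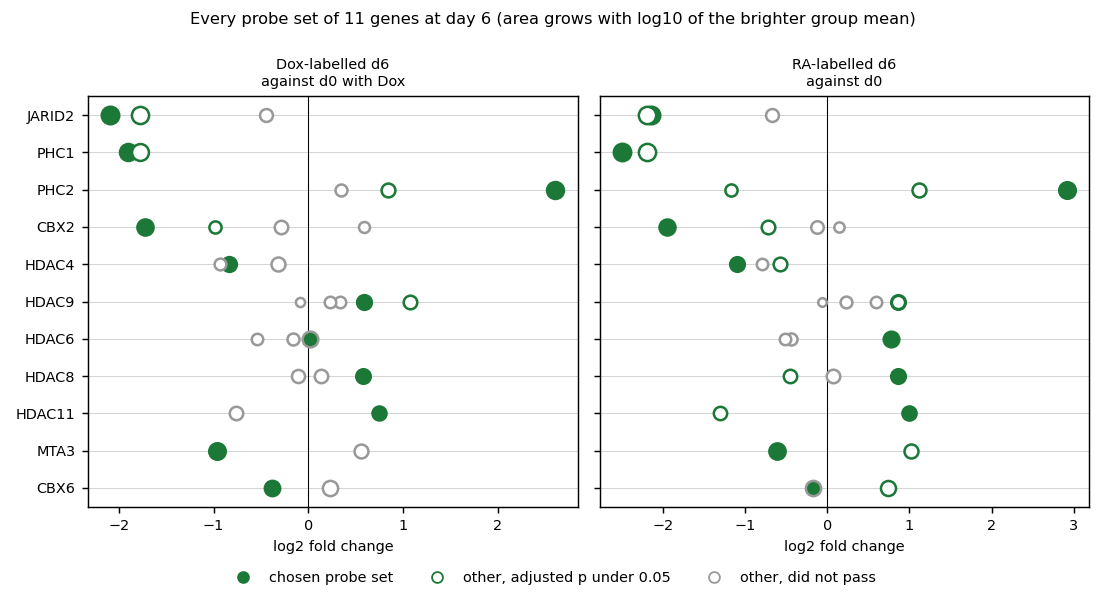
Log2 fold change of every probe set of 11 genes in Dox-labelled day 6 against d0 with Dox (left) and RA-labelled day 6 against d0 (right). Filled points are the probe set that represents the gene, green rings others that passed, and grey rings others that did not pass. JARID2 and PHC1 have a second bright probe set beside the first, while HDAC11 and MTA3 have one on the other side of 0.

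The 2 day 6 changes were also set against each other by a contrast in the same fit, chosen after the values had been seen. Of the 30 genes 5 differed, against 24.2% of all genes. PHC1 fell further from d0 to RA-labelled arrays than from d0 with Dox to Dox-labelled arrays (difference -0.59 ± 0.09, adjusted p = 0.00107), from unequal starting levels to nearly equal day 6 levels. HDAC6 rose in RA-labelled arrays (1124, 1003 and 1091, against 674.7, 633.8 and 560.2 in d0, 0.77 ± 0.12) and not in Dox-labelled arrays (1027, 1373 and 1118, against 1197, 1035 and 1212 in d0 with Dox, 0.02 ± 0.12), a difference of 0.75 ± 0.17 (adjusted p = 0.00951). The mean of the HDAC6 probe sets gave a difference of 0.17, which did not pass (adjusted p = 0.639).

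HDAC1 rose by 0.20 ± 0.06 in RA-labelled arrays (adjusted p = 0.0177, and 0.0636 without RA-labelled replicate 1) and fell by 0.30 ± 0.06 in Dox-labelled arrays (adjusted p = 0.00171). The difference was 0.50 ± 0.08 (adjusted p = 0.00187). EZH1 and SIN3A differed in the same direction (0.57 ± 0.15 and 0.37 ± 0.10, adjusted p = 0.0216 and 0.0266). SIN3A stood at 1025, 1014 and 975.2 in d0 with Dox, above its Dox-labelled day 6 arrays (-0.39 ± 0.07), and at 951.7, 936.7 and 964.8 in d0, within the range of its RA-labelled arrays (-0.02 ± 0.07). The second SIN3A probe set fell in both, reading 715.9 in Dox-labelled against 1007 in d0 with Dox (-0.48) and 736.2 in RA-labelled against 984.8 in d0 (-0.41). With probe sets averaged, neither EZH1 (0.35, adjusted p = 0.24) nor SIN3A (0.06, adjusted p = 0.852) differed past the threshold. The other 25 genes did not pass this test, EZH2 with a difference of 0.00 ± 0.13 and JARID2 with -0.06 ± 0.18.

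These differences depend on which undifferentiated group each day 6 group is set against, which the day 6 labels decide. With the starting groups exchanged, an alternative added after the labels had been checked, the difference of PHC1 was 0.76 and that of HDAC6 -0.98, both past the threshold with the opposite sign. EZH1, HDAC1 and SIN3A then did not pass (-0.13, 0.01 and 0.22). Of the single changes, 18 genes were called in RA-labelled day 6 against d0 with Dox (48.3% of all genes) and 20 in Dox-labelled day 6 against d0 (48.5% of all genes). The falls of JARID2, CBX2, PHC1 and EZH2 and the rise of PHC2 passed there too. The Dox-labelled falls of HDAC1 (-0.06, adjusted p = 0.451), EZH1 (-0.05, adjusted p = 0.732) and EED (-0.05, adjusted p = 0.554) did not, nor did the RA-labelled rises of HDAC1 (-0.05) and HDAC6 (-0.09). HDAC6 rose in Dox-labelled arrays against d0 (0.89) and MTA2 fell in RA-labelled arrays against d0 with Dox (-0.59).

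**Figure D4:**
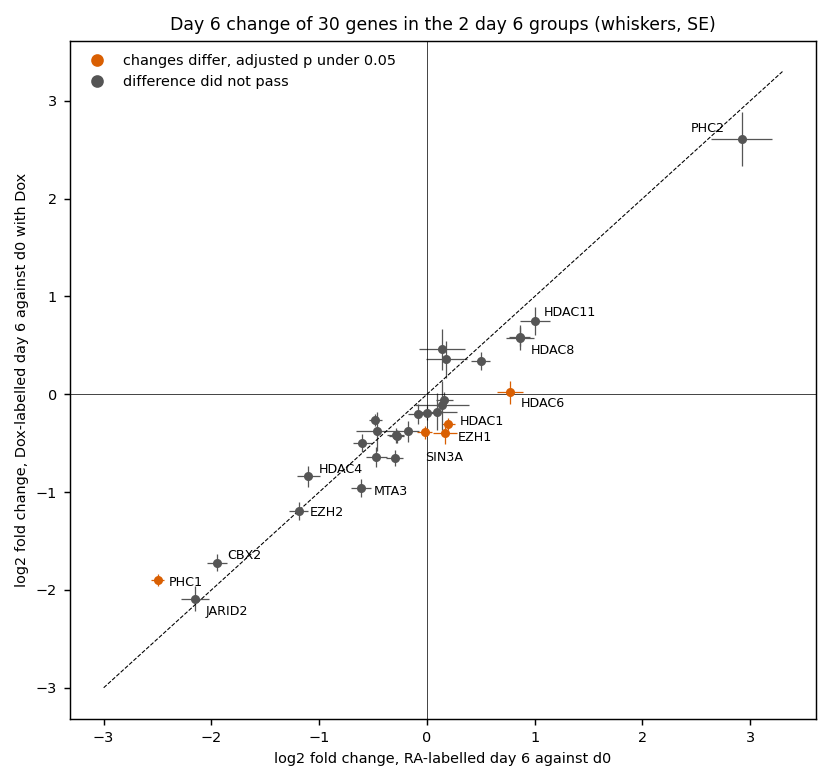
Log2 fold change of each of the 30 genes in RA-labelled day 6 against d0 (x axis) and in the Dox-labelled day 6 arrays against d0 with Dox (y axis), with SE as whiskers. Genes on the dashed line changed equally, and the 5 orange ones differed past an adjusted p of 0.05. JARID2, CBX2, PHC1 and EZH2 lie at lower left and PHC2 at upper right.

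Other subunits and partners of these complexes were read from a list of 86 genes in 11 groups, of which 79 were measured. In d0 with Dox against d0, 16 rose and 3 fell (24.1%, against 12.9% of all genes). The largest called rises were SALL1, a zinc finger factor that binds NuRD (mean signal 3585 in d0 with Dox and 1342 in d0), ASXL3, a partner of the BAP1 deubiquitinase (log2 1.27), and YAF2 of variant PRC1 (1.21). ASXL3 and YAF2 were dim, averaging 89.04 and 105.8 in d0 with Dox and 28.4 and 37.51 in d0. The 3 that fell were the PRC2 accessory gene AEBP2 (-0.44), the Groucho corepressor TLE1 (-0.40) and the sirtuin SIRT1 (-0.33). In Dox-labelled against RA-labelled day 6, 16 were higher and 10 lower (32.9%, against 25.9%), with the SIN3 subunit SINHCAF (mean signal 10080 in Dox-labelled and 4216 in RA-labelled arrays) and the NuRD subunit MBD2 (log2 1.15) highest and BCOR of variant PRC1 (-0.75) and TLE1 (-0.64) lowest.

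At day 6, 25 of the 79 rose and 30 fell in RA-labelled arrays (69.6%, against 50.5%), and 24 rose and 26 fell in Dox-labelled arrays (63.3%, against 46.1%). Falls of SALL4, a pluripotency factor that recruits NuRD (-2.09 in Dox-labelled arrays), of MBD2 (-2.88 in RA-labelled arrays) and of BCOR (-2.27 in RA-labelled and -2.70 in Dox-labelled arrays) were the largest of their groups. Among the largest rises of their groups were YAF2 (3.06 in RA-labelled and 2.09 in Dox-labelled arrays), SCML1, a Sex comb on midleg relative (2.34 and 1.79), and KDM6B, which removes the PRC2 mark (1.60 and 1.01). The PR-DUB complex opposes PRC1 by removing ubiquitin, but its deubiquitinase BAP1 is not among the 5 PR-DUB genes measured. Of these 5 genes, 4 rose and 0 fell in RA-labelled arrays, and 3 rose and 1, ASXL2, fell in Dox-labelled arrays. Of 9 NuRD partners 5 fell and 1 rose in RA-labelled arrays, and 4 fell and 2 rose in Dox-labelled arrays. Of all genes, 25.2% fell and 25.3% rose in RA-labelled arrays and 23.9% fell and 22.2% rose in Dox-labelled arrays.

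**Figure D5:**
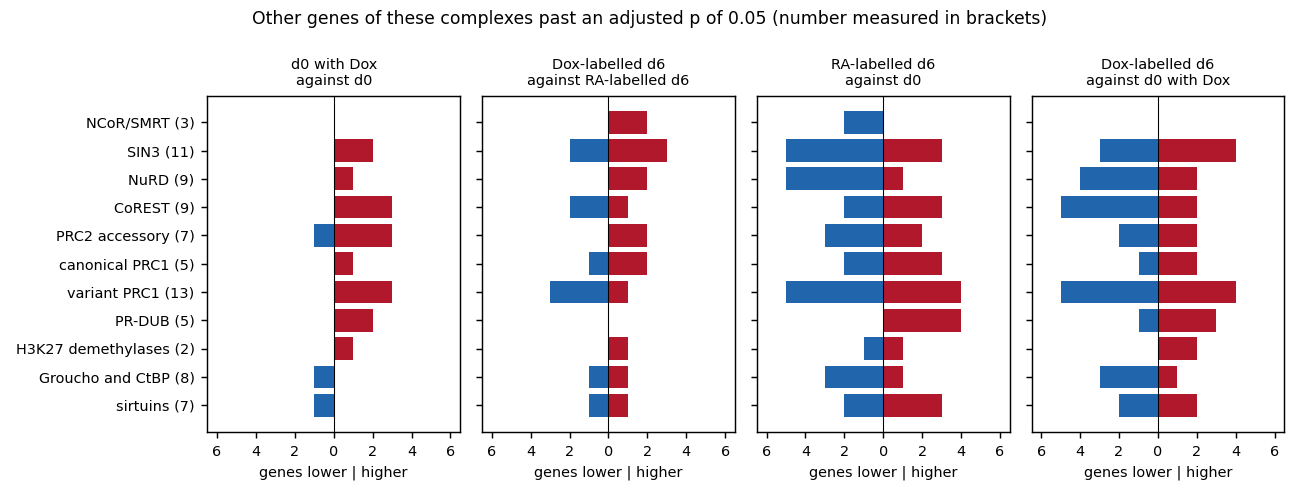
Number of other genes of these complexes that fell (blue, left of 0) or rose (red, right of 0) past an adjusted p of 0.05 in each comparison (panels), by group, with the number measured in brackets. The 2 right-hand panels hold longer bars on both sides, and the PR-DUB bar of the RA-labelled panel lies wholly to the right.

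Promoters of 4 genes with large day 6 changes are shown because a GCNF site would be sought there. GCNF is known to bind a direct repeat of the nuclear receptor half-site with no spacer. Each is the 250 bases before the first listed start, from RefSeq (GRCh38.p14), on the gene's strand, 5′ to 3′, with CpG dinucleotides in capitals. JARID2 lies at chr6:15245819-15246068 (plus strand), PHC1 at chr12:8913593-8913842 (plus strand), EZH2 at chr7:148884292-148884541 (minus strand) and PHC2 at chr1:33431096-33431345 (minus strand).
JARID2: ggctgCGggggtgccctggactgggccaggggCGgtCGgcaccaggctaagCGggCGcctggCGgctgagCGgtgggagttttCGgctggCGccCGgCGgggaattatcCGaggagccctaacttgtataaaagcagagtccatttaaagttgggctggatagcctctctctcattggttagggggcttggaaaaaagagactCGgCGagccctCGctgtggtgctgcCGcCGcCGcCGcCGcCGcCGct
PHC1: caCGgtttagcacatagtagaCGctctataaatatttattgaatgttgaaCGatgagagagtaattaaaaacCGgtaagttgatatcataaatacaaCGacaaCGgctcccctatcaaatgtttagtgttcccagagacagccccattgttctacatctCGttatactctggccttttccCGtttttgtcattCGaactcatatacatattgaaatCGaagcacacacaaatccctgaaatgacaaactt
EZH2: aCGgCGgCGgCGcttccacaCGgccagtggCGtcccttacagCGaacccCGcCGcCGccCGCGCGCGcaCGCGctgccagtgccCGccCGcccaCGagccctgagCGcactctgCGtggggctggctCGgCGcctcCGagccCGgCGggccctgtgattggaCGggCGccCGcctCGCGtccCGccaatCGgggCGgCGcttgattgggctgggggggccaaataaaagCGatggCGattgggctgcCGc
PHC2: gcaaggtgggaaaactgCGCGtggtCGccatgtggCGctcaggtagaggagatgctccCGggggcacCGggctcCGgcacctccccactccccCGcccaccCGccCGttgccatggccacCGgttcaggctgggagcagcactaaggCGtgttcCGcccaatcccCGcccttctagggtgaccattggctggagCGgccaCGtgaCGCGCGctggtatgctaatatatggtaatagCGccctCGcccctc

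The PHC1 window differed from the others in base composition, with 10 CpG and 37.6% G and C, against 22 and 65.6% for JARID2, 38 and 75.6% for EZH2, and 21 and 66.8% for PHC2. The 52 windows listed for 31 of the 34 genes had a median of 25.5 CpG and 71% G and C, against 16 and 62% over 22199 windows of 15843 protein-coding genes. The half-site AGGTCA, on either strand, was in 3 of the 52 windows (5.77%, HDAC4 and HDAC9), against 10.5% of all windows. Its direct repeat with no spacer, which contains that half-site, was in 0 of the 52 and in 0.00901% of all. The E2F-type sites TTTGGCGC and TTTCCCGC were in 0 and 2 of the 52 (3.85%, SIN3A and SUZ12), against 0.685% and 1.73% of all. None of these motifs was in the 4 windows printed, which is a description of the sequence alone.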

How the data were processed

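Total RNA was isolated with TRIzol, per the labels' protocols, and read on 12 arrays. The deposited values are intensities of probe sets on a linear scale. The authors' background correction, summarisation and scaling are not given in the sources used here. Each array's mean intensity, trimmed by 2% of probe sets at either end, was 500, as scaling to a target would give. Array medians were 64.2 to 78.0. Precision is limited by the 3 arrays a group.

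Of 54675 probe sets, 41097 had 1 gene symbol in the platform annotation, 1801 several and 11777 were not listed with one. Symbols were updated through the gene ID for 41043 (GRCh38.p14). Of the 30 measured genes 24 had several probe sets, 76 in all. Limma 3.58.1 (R 4.3.3), with lmFit and eBayes on log2(intensity + 16) over all 12 arrays and 8 residual degrees of freedom, gave p-values adjusted by Benjamini-Hochberg over 19775 genes, or over all probe sets where stated. In simulated data for d0 with Dox against d0 (19775 genes), 11, 33, 47 and 50 of 50 genes changed by 1.25, 1.5, 2 and 4-fold were recovered, with 9 false calls. The changed genes were all at or above the median signal, so recovery of dimmer genes was not simulated. Noise was normal and independent between genes, and far fewer genes were changed than were called in the data.

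The genes, lists and tests were chosen with earlier results of these data known. All called genes of the list may be named, with array values for the largest called rise and fall of each role, for genes that another probe set contradicts and for some that missed the threshold. Of other complexes only the largest called rise or fall of a group is named, and PR-DUB and NuRD are also given by count. Alternatives were median centring, quantile normalization, averaging a gene's probe sets, genes at or above the median, pseudocounts of 1 and 64, array weights, a trended robust variance, a replicate block, each comparison's 6 arrays alone, leaving out each array in turn and, added after the labels had been checked, exchanged starting groups. Array batches were not tested, since scan dates were not used here.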

Additional observations from a re-analysis of the deposited data

Results flagged for a closer look

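Of the 30 genes, 5 changed differently in the 2 day 6 comparisons, from d0 to RA-labelled and from d0 with Dox to Dox-labelled arrays, in a limma contrast chosen after the values had been seen (24.2% of all genes passed it). The difference was -0.59 for PHC1 (-0.63 to -0.56 on leaving out 1 array), 0.50 for HDAC1 (0.47 to 0.52), 0.75 for HDAC6 (0.66 to 0.87), 0.57 for EZH1 (0.45 to 0.65) and 0.37 for SIN3A (0.30 to 0.42), on the log2 scale. With probe sets averaged, HDAC6 (0.17), EZH1 (0.35) and SIN3A (0.06) did not pass. With 3 arrays a group, single arrays were not tested as outliers.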

How the results depend on the processing

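The log2 fold changes of the 30 genes were repeated 1964 times under other settings. Of these repeats, 1859 kept their side of the threshold, 32 gained a call and 66 lost theirs with the sign kept. In the other 7 a called change turned its sign and no longer passed. Repeats whose sign turned while the change passed in neither setting are counted among the 1859. The calls of JARID2, PHC1, CBX2, EZH2 and PHC2 in day 6 against undifferentiated arrays were lost under none of these settings. Between the day 6 groups, EZH2 lost its call with quantile normalization, median centring and the 6 arrays alone.

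For d0 with Dox against d0, 5 of the 30 genes passed, beside 2552 of all genes. Averaging probe sets gave 2 calls (1722 of all genes), and the 6 arrays alone gave 2 (1522 of all genes). A trended robust variance gave 10 (3449 of all genes). Testing only genes at or above the median mean gave 10 of 26, beside 3253 genes of that brighter set. On leaving out 1 array, 3 to 5 of the 30 genes passed (1786 to 2323 of all genes), with 3 without d0 replicate 1 and 3 without d0 with Dox replicate 3. For Dox-labelled against RA-labelled day 6, 6 of the 30 genes passed, beside 5120 of all genes. The mean of probe sets gave 3 (4134 of all genes) and the 6 arrays alone gave 3 (4416 of all genes). Leaving out 1 array gave 2 to 6 there (4043 to 4490 of all genes). Leaving out 1 array gave 18 to 20 calls in RA-labelled day 6 against d0 (9272 to 9520 of all genes) and 20 to 22 in Dox-labelled day 6 against d0 with Dox (8296 to 8370). These repeats have fewer arrays, and the cause of the other shifts was not tested.

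Of the called changes, the mean of probe sets turned the sign of CBX2 between the day 6 groups (-0.04). It also turned those of HDAC6 (-0.06), HDAC11 (-0.16) and MTA3 (0.20) in RA-labelled day 6 against d0. In Dox-labelled day 6 against d0 with Dox it turned that of HDAC11 (-0.01). With the starting groups exchanged, the called changes of HDAC1 (-0.05) and HDAC6 (-0.09) turned in the RA-labelled comparison. So did the called differences between the day 6 changes of PHC1 (0.76), HDAC6 (-0.98) and EZH1 (-0.13). Sign turns of changes that passed in neither setting are not listed here.

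Same-numbered arrays did not deviate together (r = -0.01 to 0.05), so the numbers share only a label. With the replicate block, 6, 6, 19 and 21 of the 30 genes passed in the 4 comparisons in the order of the text, against 5, 6, 19 and 22, and EED lost its call (adjusted p = 0.0647). Of all genes 2296, 4901, 9916 and 8987 passed with the block, against 2552, 5120, 9993 and 9120.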
